A study of Arabidopsis thaliana with 36 samples.

Results

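The genes described here are 4 Arabidopsis thaliana genes that lie along a short metabolic route: AACT1 (AT5G61160), ADC1 (AT2G16500), ADC2 (AT4G34710) and DTX18 (AT3G23550). They are 4 of the 32678 genes in the count table, taken by their locus identifiers, and all 4 passed the filter on low counts. AACT1 was picked because its level was raised in untreated wrky40 seedlings, so every AACT1 difference that uses the untreated WT or untreated wrky40 libraries is given as a description with no test, and so is untreated wrky40 against WT for all 4 genes. The other tests do not use the contrast that chose AACT1. Tests of ADC1, ADC2 and DTX18 that include untreated WT or untreated wrky40 do share its libraries. Over the 12 untreated libraries, Pearson's r between AACT1 and DTX18 on a log2 scale was 0.80. The 4 genes and the tests were also chosen with earlier results of these data known.

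RNA sequencing was done on seedlings in the Col-0 background, 12 days old and kept in MS medium with sucrose and claforan under long days. The genotypes were WT, the wrky18 mutant, the wrky40 mutant and the wrky18 wrky40 double mutant. Material was harvested untreated (0 h), or 1 h or 2 h after the medium was exchanged for one containing 1 µM flg22, a flagellin fragment perceived by the receptor kinase FLS2. Each of the 12 groups held 3 biological replicates, for 36 libraries with 17287229 to 38709715 counts each. Untreated seedlings had no exchange of medium, so a change from 0 h may come from flg22, from the exchange or from the later hour, which cannot be told apart.

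Plants make putrescine from arginine by way of agmatine, and arginine decarboxylase carries out the first step. Agmatine can instead be joined to p-coumaric acid, a product of the phenylpropanoid pathway. The resulting coumaroylagmatine is an antimicrobial amide that Arabidopsis exports to the leaf surface, where it takes part in defence against the potato blight pathogen Phytophthora infestans. ADC1 and ADC2 encode the arginine decarboxylases, AACT1 encodes the acyltransferase of the BAHD family that joins coumaroyl-CoA to agmatine, and DTX18 encodes a transporter of the MATE family that exports the product. WRKY18 and WRKY40 are WRKY transcription factors, a family known to bind the W-box in promoters.

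The genes lie on different chromosomes, with coordinates here from the RefSeq annotation of TAIR10.1. AACT1 is a gene of 1 exon on the plus strand of chromosome 5 (24608605 to 24610329). ADC1 is on the minus strand of chromosome 2 (7150514 to 7153430), and ADC2 on the minus strand of chromosome 4 (16560030 to 16563044), each with 1 exon. DTX18 has 7 exons on the minus strand of chromosome 3 (8448273 to 8450799) and overlaps its neighbour AT3G23540 on the other strand by 69 bp. ADC2 lies 1.17 Mb from WRKY18, and no member is on chromosome 1 with WRKY40. No stretch of 50 nt from the exons of any member occurs elsewhere in the genome. The longest exact stretch shared by ADC1 and ADC2 is 40 nt, and DTX18 shares up to 42 nt with the tandem MATE gene ALF5, whose gap to DTX18 is 3103 bp.

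The sequences upstream of AACT1 and DTX18 are shown because these were the members whose untreated levels differed between genotypes in the same direction. Each covers the 250 bases before the annotated start in TAIR10.1, read 5′ to 3′ on the strand of the gene, at chr5:24608355-24608604 on the plus strand for AACT1 and at chr3:8450800-8451049 on the minus strand for DTX18. Capitals mark GCCGCC, the GCC-box, which ERF transcription factors are known to bind.
AACT1: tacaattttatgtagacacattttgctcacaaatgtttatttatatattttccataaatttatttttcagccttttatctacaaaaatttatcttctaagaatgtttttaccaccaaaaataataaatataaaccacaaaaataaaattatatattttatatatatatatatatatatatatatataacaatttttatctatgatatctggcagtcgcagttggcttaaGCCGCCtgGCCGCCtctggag
DTX18: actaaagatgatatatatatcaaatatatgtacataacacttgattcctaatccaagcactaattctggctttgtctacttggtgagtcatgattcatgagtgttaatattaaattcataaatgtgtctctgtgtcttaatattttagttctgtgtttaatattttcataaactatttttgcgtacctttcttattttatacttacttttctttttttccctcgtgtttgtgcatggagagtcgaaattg

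The AACT1 window holds GCCGCC at 2 places, with first bases 21 and 13 bases before the annotated start. Both strands were searched in the promoters of 27443 genes, and 1.87% of windows of this length held at least 1 GCCGCC while 0.135% held at least 2. The W-box core TTGAC is in none of the 4 members' 250 bases, and 44.9% of all windows of this length hold it. In windows of 1000 bases, AACT1 and ADC2 have no TTGAC, whereas ADC1 and DTX18 have 1 each, 625 and 916 bases before the start; 88.1% of promoters hold it at this length. The DTX18 match extends to the longer form (TTGACC or TTGACT), found in 67.3% of windows of 1000 bases. At this length GCCGCC was found at 1 place in DTX18, 458 bases before the start. AACT1 kept its 2 places, and ADC1 and ADC2 had none. Of windows of 1000 bases, 8.44% held at least 1 GCCGCC and 1.26% at least 2. These matches are letters in a window and not measured binding sites.

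Levels are given as CPM (library-scaled counts) after TMM scaling, with the SD over the 3 libraries of a group, and changes as log2 fold changes ± SE from an edgeR quasi-likelihood fit of all 36 libraries. A gene was called at a Benjamini-Hochberg adjusted p below 0.05 over the 21356 genes tested. WRKY18 transcripts averaged 24.1, 125 and 50.6 CPM in WT at 0, 1 and 2 h and 10.2, 28.1 and 16.4 CPM in wrky18, and WRKY40 transcripts 5.60, 223 and 346 CPM in WT and 0.680, 25.2 and 37.1 CPM in wrky40. In the double mutant WRKY40 averaged 0.717, 25.5 and 39.7 CPM and WRKY18 16.3, 52.3 and 29.7 CPM. Group means of each mutated gene thus lay below WT at every time, with the smallest separation for WRKY18 in the untreated double mutant (14.2 to 18.8 CPM, against 18.8 to 28.0 CPM in WT), and some counts of the mutated genes remained. In the single mutants the means of the other gene lay above WT. WRKY18 averaged 33.5, 312 and 109 CPM in wrky40 at 0, 1 and 2 h, and WRKY40 8.66, 282 and 364 CPM in wrky18. Summed CPM of 4 markers of green tissue and of 6 root markers showed both tissues in every library, and 5 genes of flower, pollen and seed summed to at most 4.48 CPM, in WT 0 h replicate 3. In bulk seedlings, fewer cells of a type and less RNA per cell cannot be told apart. The share of mitochondrial counts had a median of 0.106% in replicates 1 and 2 and 0.0165% in replicate 3, with WT 1 h replicate 3 at 0.134%; its part in the results was not tested.

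In WT, flg22 treatment was followed by higher levels of all 4 transcripts, with the smaller changes in the decarboxylase genes and the larger ones in the acyltransferase and exporter genes. ADC1 rose by 1.61-fold by 2 h, ADC2 by 2.90-fold and DTX18 by 14.1-fold, each called, and AACT1 stood 46.5-fold above its untreated level, with no test. Among all genes tested, 28.8% were called higher and 32.0% lower at 1 h, and 36.7% higher and 35.1% lower at 2 h, so a call alone does not set the 3 tested genes apart. The size did differ between the genes: 25.4% of genes had a larger rise than ADC1 at 2 h, 3.57% than DTX18 and 1.42% than AACT1. The share for AACT1 uses the untreated WT libraries it was chosen on and is a description only. In wrky18, which is free of those libraries, 2.58% of genes had a larger rise than AACT1 at 2 h. In the double mutant, also free of them, that share was higher still, though below the 5.03% for DTX18 there. Marker levels moved over the same times in WT. The summed level of the green tissue markers went from 25287 to 27824 CPM untreated to 16763 to 18711 CPM at 2 h. That of the root markers went from 1943 to 2015 CPM to 1338 to 1563 CPM. Most of the root sum was PYK10, with means of 1957 CPM untreated and 1379 CPM at 2 h. The root markers did not move together: RHD6 and COBL9 fell as PYK10 did. EXPA7, CASP1 and NRT2.1 rose by 2 h, with log2 fold changes of 1.06, 0.66 and 1.44, each called. The 3 touch genes TCH2, TCH3 and TCH4 together went from 196 to 292 CPM untreated to 2698 to 2926 CPM at 1 h and 1613 to 1834 CPM at 2 h. The part of these markers in the rises of the 4 genes was not tested.

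**Figure D1:**
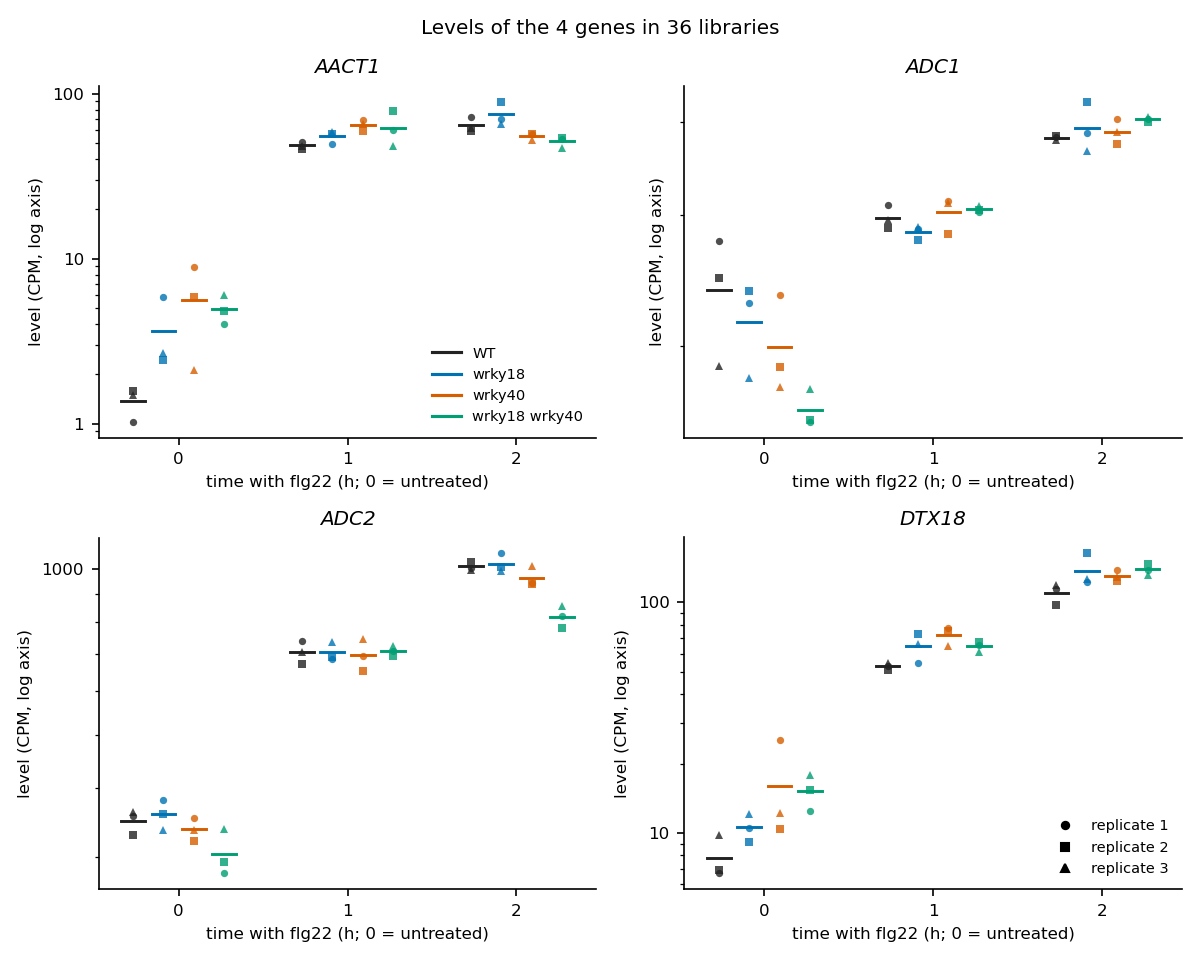
Level of each gene (CPM, log axis) in every library against time with flg22 (h, with 0 for untreated), 1 panel per gene; colours are genotypes, symbols are replicate numbers and bars are group means of 3 libraries. AACT1 in WT lies between 1.03 and 1.58 CPM untreated and between 46.4 and 71.6 CPM after flg22, while ADC1 spans a narrower range, from 158 to 426 CPM over all libraries.

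ADC1, one of the arginine decarboxylase genes, had levels of 277, 247 and 188 CPM in the 3 untreated WT libraries, 309, 288 and 295 CPM at 1 h and 382, 383 and 379 CPM at 2 h. The untreated libraries were spread more widely than the treated ones, and all of them lay below the treated libraries, as did 31.9% of genes at 1 h and 38.4% at 2 h. ADC1 rose by 0.32 ± 0.10 at 1 h (adjusted p = 0.00729) and by 0.68 ± 0.10 at 2 h (adjusted p = 6.01e-07). The call at 1 h is the weaker: without WT 0 h replicate 3 the change was 0.18 (adjusted p = 0.117), and under upper-quartile scaling 0.12 (adjusted p = 0.318). That scaling moved the median of all genes from -0.05 to -0.25 at 1 h and from -0.01 to -0.27 at 2 h, and the calls from 6156 higher and 6833 lower to 4771 and 10037 at 1 h and from 7831 and 7502 to 5978 and 10178 at 2 h, so small rises are read relative to it.

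ADC2, the other decarboxylase gene and the one with the higher transcript level, stood at 355, 329 and 361 CPM in untreated WT, at 739, 671 and 706 CPM at 1 h and at 1005, 1029.9 and 995 CPM at 2 h. The 3 times did not overlap. Of all genes, 31.9% lay wholly higher at 1 h than untreated, 38.4% at 2 h than untreated and 32.4% at 2 h than at 1 h. ADC2 rose by 1.02 ± 0.07 at 1 h (adjusted p = 2.26e-14) and 1.54 ± 0.07 at 2 h (adjusted p = 4.74e-19). Per kilobase of exon, the level of ADC2 in WT was 116 CPM untreated and 335 CPM at 2 h, against 81.5 and 131 for ADC1, 0.793 and 37.3 for AACT1 and 4.54 and 64.1 for DTX18. On this per-length scale ADC2 was the highest of the 4 at each time and AACT1 the lowest.

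AACT1, the acyltransferase gene, was close to the lower end of what was counted in untreated WT, with 27, 47 and 46 counts in the 3 libraries. These are 1.03, 1.58 and 1.49 CPM, and the libraries at 1 h had 51.2, 46.4 and 48.4 CPM and those at 2 h 71.6, 59.6 and 61.9 CPM. The difference from 0 h was 5.14 ± 0.32 at 1 h and 5.54 ± 0.31 at 2 h, values that use the libraries AACT1 was chosen on and carry no test. The changes within wrky18 and within the double mutant are free of those libraries. AACT1 rose in wrky18 by 3.94 ± 0.27 at 1 h (15.4-fold, adjusted p = 4.02e-14, where 28.3% of genes were called higher) and by 4.39 ± 0.28 at 2 h (20.9-fold, adjusted p = 2.03e-15, where 36.8% were). It rose in wrky18 wrky40 by 3.65 ± 0.27 at 1 h (12.6-fold, adjusted p = 1.33e-13, where 30.1% of genes were called higher) and by 3.38 ± 0.27 at 2 h (10.4-fold, adjusted p = 6.69e-13, where 36.3% were).

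DTX18, the exporter gene, had 6.70, 6.94 and 9.79 CPM in untreated WT, 53.1, 51.0 and 54.4 CPM at 1 h and 114, 97.7 and 119 CPM at 2 h. No library of one time overlapped another time. Of all genes, 31.9% lay wholly higher at 1 h than untreated, 38.4% at 2 h than untreated and 32.4% at 2 h than at 1 h. The rise was 2.75 ± 0.21 at 1 h (adjusted p = 3.02e-13, where 28.8% of genes were called higher) and 3.82 ± 0.21 at 2 h (adjusted p = 8.64e-17, where 36.7% were). DTX18 went on rising between 1 h and 2 h in WT, by 1.06 ± 0.19 (adjusted p = 1.53e-05, where 27.9% of genes were called higher), and by 0.85 to 1.11 in the mutants, each called, where 28.7% of genes were called higher in wrky18, 27.1% in wrky40 and 24.8% in wrky18 wrky40. For AACT1 the step from 1 h to 2 h was not called in any genotype in the fit of all libraries, with 0.40 ± 0.22 in WT (adjusted p = 0.137), 0.44 ± 0.22 in wrky18 (adjusted p = 0.0965), -0.23 ± 0.22 in wrky40 (adjusted p = 0.417) and -0.27 ± 0.22 in wrky18 wrky40 (adjusted p = 0.327). In fits of only the groups compared it was called higher in WT (0.37, adjusted p = 0.00117) and wrky18 (0.42, adjusted p = 0.00721) and lower in wrky40 (-0.24, adjusted p = 0.0306). The step of AACT1 from 1 h to 2 h differed between wrky18 wrky40 and WT by -0.68 ± 0.32, which was not called (adjusted p = 0.430, where 1.01% of genes were called).

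The other 3 genes rose after flg22 in the mutants as they did in WT. ADC1 was called higher at both times in all 3 mutants, with changes of 0.40 to 0.90 at 1 h and 0.87 to 1.30 at 2 h; the call in wrky18 at 1 h was lost under upper-quartile scaling (0.21, adjusted p = 0.0775). ADC2 was called with 0.98 to 1.22 at 1 h and 1.43 to 1.52 at 2 h, and DTX18 with 2.09 to 2.61 and 3.01 to 3.69. In wrky40, where AACT1 has no test, it stood 3.48 ± 0.26 above the untreated level at 1 h and 3.25 ± 0.26 at 2 h. The share of genes called higher was 28.3% at 1 h and 36.8% at 2 h in wrky18. It was 29.9% and 37.2% in wrky40 and 30.1% and 36.3% in wrky18 wrky40.

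Before treatment, the levels of AACT1 differed between genotypes in a way that fixed the choice of this gene. The untreated wrky40 libraries had 8.85, 5.86 and 2.12 CPM (328, 169 and 52 counts), against 1.03, 1.58 and 1.49 CPM in WT. The untreated wrky18 libraries had 5.88, 2.42 and 2.69 CPM, and those of the double mutant 4.04, 4.82 and 5.99 CPM. All the untreated mutant libraries thus lay above the 3 of WT, the lowest of them wrky40 replicate 3 with 2.12 CPM, and the 3 mutants overlapped one another. Libraries wholly above WT were found for 4.45% of genes in wrky18, 5.85% in wrky40 and 9.14% in wrky18 wrky40.

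As a description, untreated AACT1 was 2.07 ± 0.35 higher in wrky40 than in WT (4.19-fold), 1.37 ± 0.37 higher in wrky18 and 1.83 ± 0.36 higher in the double mutant. The share of genes called was 0.332% in wrky40, 0.0234% in wrky18 and 2.56% in wrky18 wrky40. The value for wrky18 depends on its replicate 1 and was 0.89 without it, and the value for wrky40 was 1.56 without its replicate 1. The untreated test that uses none of the libraries AACT1 was chosen on compared the double mutant with wrky18. It gave 0.46 ± 0.30 (95% interval -0.16 to 1.08, adjusted p = 0.508), where 1.46% of genes were called.

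DTX18 showed untreated levels above WT in the double mutant as well, by a smaller difference. Its untreated levels were 6.70, 6.94 and 9.79 CPM in WT, 10.5, 9.12 and 12.1 CPM in wrky18, 25.3, 10.4 and 12.2 CPM in wrky40 and 12.5, 15.4 and 17.8 CPM in the double mutant. wrky40 replicate 1 stood apart, and it is also the untreated library with the highest AACT1 level. The double mutant lay above WT without overlap and DTX18 was 0.96 ± 0.21 higher there (1.94-fold, adjusted p = 0.00841, where 1.84% of genes were called higher).

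That call was lost without WT 0 h replicate 1 (0.86, adjusted p = 0.104), without WT 0 h replicate 2 (0.88, adjusted p = 0.0693), without double mutant 0 h replicate 3 (0.83, adjusted p = 0.0739) and in a fit of the groups compared alone (0.96, adjusted p = 0.0520). DTX18 was not called in wrky18 against WT (0.43 ± 0.21, adjusted p = 1.00) or in the double mutant against wrky18 (0.52 ± 0.20, adjusted p = 0.201). For wrky40 against WT, which has no test, the difference was 1.04 ± 0.21, and 0.53 without wrky40 replicate 1. The summed level of the 3 touch genes TCH2, TCH3 and TCH4 was 333 to 382 CPM in the untreated double mutant, 269 to 331 CPM in wrky40, 203 to 321 CPM in wrky18 and 196 to 292 CPM in WT, so these handling markers also lay above WT in the double mutant without overlap, and their part in the AACT1 and DTX18 values was not tested.

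**Figure D2:**
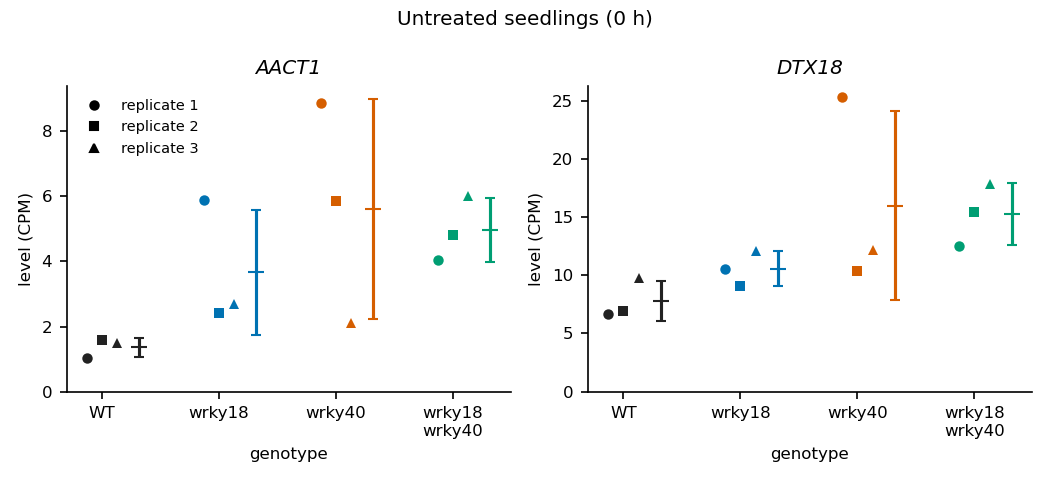
Levels of AACT1 and DTX18 (CPM) in the 12 untreated libraries by genotype; symbols are replicate numbers, and the bars beside them show the mean ± SD of 3 libraries. wrky40 replicate 1 is the highest point in both panels, at 8.85 CPM for AACT1 and 25.3 CPM for DTX18, and the double mutant libraries lie above all WT libraries in both.

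The decarboxylase gene ADC1 went the other way in untreated seedlings. Its levels were 158, 159 and 175 CPM in the double mutant, 234, 187 and 176 CPM in wrky40, 228, 237 and 181 CPM in wrky18 and 277, 247 and 188 CPM in WT. The double mutant lay below the other 3 genotypes without overlap, and replicate 3 was the lowest library in each of those 3. Of all genes, 10.3% lay wholly lower in it than in WT, 8.58% than in wrky18 and 8.36% than in wrky40. ADC1 was lower in the double mutant than in WT by -0.54 ± 0.10 (adjusted p = 0.00278, where 0.721% of genes were called lower), and lower than in wrky18 by -0.40 ± 0.10 (adjusted p = 0.0449, where 0.454% were called lower).

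The first of these calls was lost without WT 0 h replicate 1 (-0.41, adjusted p = 0.0725) and in a fit of the groups compared alone (-0.53, adjusted p = 0.114). The second was lost under RLE scaling (-0.38, adjusted p = 0.0517), in a fit of the groups compared alone (-0.40, adjusted p = 0.265), without wrky18 0 h replicate 1 (-0.35, adjusted p = 0.147) or 2 (-0.32, adjusted p = 0.234) and without any 1 of the 3 double mutant 0 h libraries (adjusted p from 0.0876 to 0.163). The double mutant was not called against wrky40 for ADC1 (-0.28 ± 0.10, adjusted p = 0.188), nor wrky18 against WT (-0.14 ± 0.10, adjusted p = 1.00). ADC2 in untreated double mutant libraries was 280.1, 294 and 337 CPM, overlapping WT, and was not called against WT (-0.20 ± 0.07, adjusted p = 0.134) or wrky18 (-0.24 ± 0.07, adjusted p = 0.0663). The first became a call without double mutant 0 h replicate 3 (-0.28, adjusted p = 0.0498), and the second under upper-quartile scaling (-0.25, adjusted p = 0.0376), in DESeq2 (-0.23, adjusted p = 0.0280) and without wrky18 0 h replicate 3 (-0.28, adjusted p = 0.0280).

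After flg22 no mutant was called against WT for AACT1, ADC1 or DTX18 in the fit of all libraries. The green tissue markers summed to 13127 to 15752 CPM in wrky40 at 2 h, below the 16763 to 18711 CPM of WT, and their part in the differences at 2 h was not tested. AACT1 at 1 h was 69.2, 59.0 and 65.6 CPM in wrky40, 60.0, 78.3 and 47.9 CPM in the double mutant and 49.5, 56.9 and 58.6 CPM in wrky18, beside 46.4 to 51.2 CPM in WT. At 2 h it was 56.7, 56.6 and 52.4 CPM in wrky40, 53.2, 53.8 and 46.8 CPM in the double mutant and 70.1, 88.9 and 65.1 CPM in wrky18, beside 59.6 to 71.6 CPM in WT. The wrky40 libraries lay above WT at 1 h and below WT at 2 h without overlap, and those of the double mutant below WT at 2 h.

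None of these AACT1 differences from WT was called in the fit of all libraries. They were 0.41 ± 0.23 in wrky40 at 1 h (95% interval -0.05 to 0.87, adjusted p = 0.430) and -0.22 ± 0.22 at 2 h (-0.68 to 0.24, adjusted p = 0.666), and for wrky18 wrky40 0.35 ± 0.22 at 1 h (-0.11 to 0.81, adjusted p = 0.435) and -0.33 ± 0.22 at 2 h (-0.79 to 0.13, adjusted p = 0.381). wrky18 differed from WT by 0.18 ± 0.23 at 1 h (adjusted p = 0.810, where 0.117% of genes were called) and 0.22 ± 0.22 at 2 h (adjusted p = 0.859, where 0.103% were). The largest difference between mutants after treatment, the double mutant against wrky18 at 2 h, was -0.54 ± 0.22 with no overlap of the libraries (adjusted p = 0.163). In fits of only the groups compared, wrky40 at 1 h was called (0.40, adjusted p = 0.0153), as were wrky18 wrky40 against WT at 2 h (-0.33, adjusted p = 0.0170) and against wrky18 at 2 h (-0.54, adjusted p = 0.00777). In the fit of all libraries, 2.23% of genes were called in the first of these comparisons and 14.2% in the second. In the last of them 3.37% were called lower. The shares called in the smaller fits are not given here. Libraries of wrky40 lay wholly above WT for 11.0% of genes at 1 h and wholly below for 11.1% at 2 h, and those of wrky18 wrky40 wholly below WT for 16.4% at 2 h. Those of wrky18 wrky40 lay wholly below wrky18 for 13.1% at 2 h.

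As a description with no test, the change of AACT1 from 0 h to 2 h was smaller than in WT by -2.29 ± 0.42 in wrky40 and by -2.16 ± 0.42 in the double mutant. These differences contain the raised untreated levels. The test that avoids the chosen libraries compared the double mutant with wrky18 in the change from 0 h to 2 h, and gave -1.01 ± 0.38 (95% interval -1.78 to -0.24, adjusted p = 0.271, where 1.06% of genes were called).

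DTX18 after treatment lay at 51.0 to 54.4 CPM in WT at 1 h and at 64.6 to 77.4 CPM in wrky40, 61.0 to 67.3 CPM in the double mutant and 54.6 to 73.2 CPM in wrky18. At 2 h it lay at 97.7 to 119 CPM in WT, 124 to 138 CPM in wrky40, 132 to 147 CPM in the double mutant and 122 to 163 CPM in wrky18. All mutant libraries were above those of WT at both times, and none of the 6 differences was called. They ran from 0.24 to 0.45, with the highest in wrky40 at 1 h (0.45 ± 0.19, 95% interval 0.07 to 0.83, adjusted p = 0.244). Libraries lay wholly above WT at 1 h for 8.73% of genes in wrky18, 11.0% in wrky40 and 14.9% in wrky18 wrky40, and at 2 h for 8.38%, 12.9% and 16.9%. In fits of the groups compared alone, 3 of them were called: wrky40 at 1 h (0.45, adjusted p = 0.0104), and wrky18 wrky40 at 1 h (0.28, adjusted p = 0.0157) and at 2 h (0.33, adjusted p = 0.0140). In the fit of all libraries, 2.23%, 5.79% and 14.2% of genes were called in these 3 comparisons. The shares called in the smaller fits are not given here, so these 3 calls are not read as particular to DTX18.

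ADC1 after treatment differed from WT by -0.06 to 0.08 over the 3 mutants and both times, with the 95% intervals within -0.27 to 0.29. From its lower untreated level, ADC1 rose by more in the double mutant than in WT, by 0.58 ± 0.15 at 1 h (adjusted p = 0.0492, where 0.824% of genes were called) and by 0.62 ± 0.15 at 2 h (adjusted p = 0.0152, where 1.95% were called). The difference at 2 h was lost without WT 0 h replicate 1 (0.49, adjusted p = 0.0834). The difference at 1 h lay at the threshold and was lost under RLE scaling (0.56, adjusted p = 0.0637), upper-quartile scaling (0.55, adjusted p = 0.0586), with no filter (0.56, adjusted p = 0.0657), in a fit of the groups compared alone (0.57, adjusted p = 0.0990) and without most single libraries (adjusted p up to 0.225). In wrky40 the corresponding differences were 0.28 ± 0.15 at each time and were not called (adjusted p = 0.745 and 0.567, where 0.0937% and 0.215% of genes were called).

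ADC2 was the member with a called difference in level from WT after treatment. Its levels at 2 h were 820.4, 779.6 and 856 CPM in the double mutant, 944, 937 and 1010.4 CPM in wrky40, 1066, 1008 and 991 CPM in wrky18 and 1005, 1029.9 and 995 CPM in WT. The double mutant lay below all other genotypes without overlap. Of all genes, 16.4% lay wholly lower in it than in WT and 13.1% than in wrky18. It was lower than WT by -0.30 ± 0.07 (0.811-fold, adjusted p = 0.00253, where 6.96% of genes were called lower) and lower than wrky18 by -0.32 ± 0.07 (adjusted p = 0.00296, where 3.37% were called lower). These 2 calls held under every alternative run, with adjusted p of at most 0.0239 and 0.0292. Against wrky40 the difference was -0.24 ± 0.07 (adjusted p = 0.0512), with the libraries apart as for 12.6% of genes, and it became a call under upper-quartile scaling (-0.26, adjusted p = 0.0206) and in DESeq2 (-0.21, adjusted p = 0.0327). These are differences in level at 2 h and not in the change from 0 h. The mean of the double mutant was already the lower one untreated, at 304 CPM against 348 CPM in WT, and was 819 CPM against 1010.1 CPM at 2 h.

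At 1 h the ADC2 libraries of all genotypes overlapped, with 695 to 725 CPM in the double mutant, 652 to 745 CPM in wrky40, 686 to 737 CPM in wrky18 and 671 to 739 CPM in WT, and with differences from WT of -0.02 to 0.01 whose 95% intervals lay within -0.16 to 0.15. Between 1 h and 2 h it rose by 0.21 ± 0.07 in the double mutant (adjusted p = 0.0133), against 0.52 ± 0.07 in WT (adjusted p = 1.78e-07). The difference between these steps, -0.31 ± 0.10, was not called (adjusted p = 0.131, where 1.01% of genes were called). The call of the smaller step was lost under upper-quartile scaling (0.11, adjusted p = 0.141), and without double mutant 1 h replicate 1 (0.18, adjusted p = 0.0685) or 2 (0.16, adjusted p = 0.0961) or double mutant 2 h replicate 3 (0.14, adjusted p = 0.148). No member was called for non-additivity (whether the wrky18 and wrky40 effects added up in wrky18 wrky40) at any time at which it was tested; for ADC2 at 2 h the value was -0.25 ± 0.10 (adjusted p = 0.306, where 0.323% of genes were called).

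**Figure D3:**
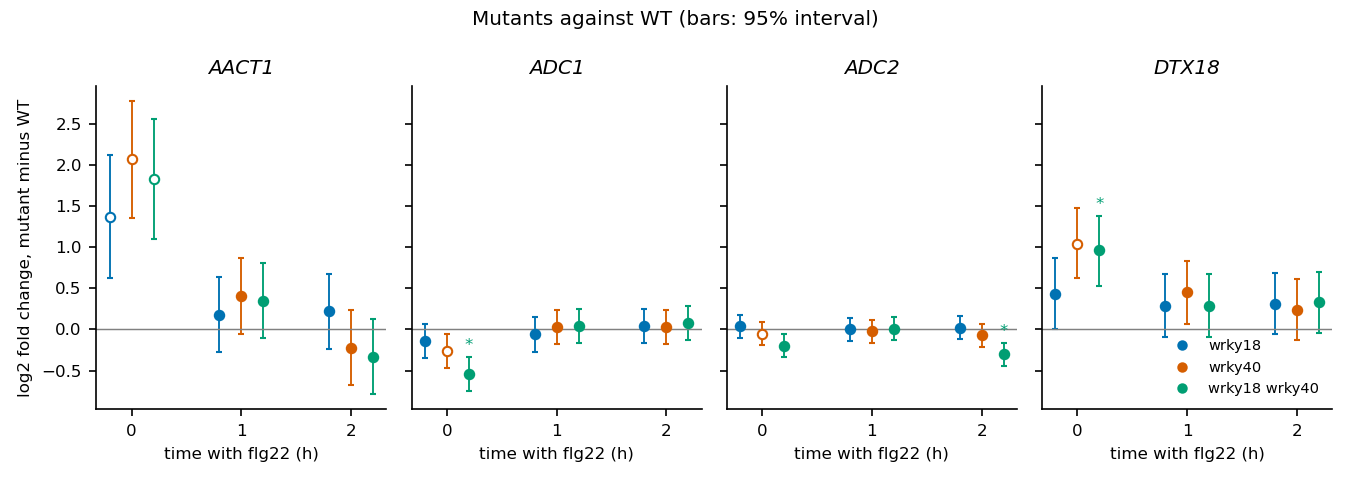
Log2 fold change of each mutant minus WT at 0, 1 and 2 h with flg22, 1 panel per gene; bars are 95% intervals from the edgeR fit. Filled points were tested, stars mark an adjusted p below 0.05 and open points carry no test. Open are all AACT1 points at 0 h, which use libraries AACT1 was chosen on, and wrky40 at 0 h for every gene, the contrast that chose AACT1. AACT1 lies at 1.37 to 2.07 at 0 h and at -0.33 to 0.41 after treatment, and the ADC2 star marks -0.30 at 2 h in the double mutant.

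The genes around the route were taken from 7 lists of 71 genes. The list that supplies coumaroyl-CoA rose with AACT1: of 9 genes, all measured, 6 were higher and 2 lower in WT at 1 h, and 7 were higher and 2 lower at 2 h. Over all genes 28.8% were called higher and 32.0% lower at 1 h, and 36.7% and 35.1% at 2 h. The median change of the list at 2 h was 2.54, beside -0.01 over all genes. 4CL5, a coumarate-CoA ligase gene, rose by 3.69 ± 0.12 at 2 h (adjusted p = 1.57e-22), PAL1, a phenylalanine ammonia-lyase gene, by 2.99 ± 0.13 (adjusted p = 7.47e-20) and C4H, the cinnamate hydroxylase gene, by 2.68 ± 0.08 (adjusted p = 2.87e-23). PAL3 and 4CL3, relatives of the same enzymes, fell by 1.80 ± 0.15 and 1.81 ± 0.16.

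Genes that make and break down arginine moved less. Of 14 genes, 2 were higher and 8 lower at 1 h, and 3 were higher and 9 lower at 2 h, with a median of -0.19 at both times, where 32.0% and 35.1% of all genes were called lower. Under upper-quartile scaling, which moves all genes downward, 2 were higher and 11 lower at each time, with medians of -0.40 and -0.46. The 2 genes higher at 1 h were those of N-acetylglutamate synthase, the entry to arginine synthesis, with 2.29 ± 0.10 for NAGS2 (adjusted p = 4.23e-19) and 0.74 ± 0.08 for NAGS1 (adjusted p = 3.90e-09). At 2 h NAGS2 was at 1.72 ± 0.10, while ARGAH2, an arginase gene, fell by 1.11 ± 0.14 (adjusted p = 2.04e-08) and CARB, for the large subunit of carbamoyl phosphate synthetase, by 0.80 ± 0.10 (adjusted p = 1.00e-08).

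The next list holds the genes that carry agmatine on to putrescine and the longer polyamines. Of 10 listed, 7 passed the filter, and 1 was higher and 3 lower at 1 h, and 1 higher and 5 lower at 2 h. The 3 of 7 lower at 1 h are near the 32.0% of all genes called lower, and at 2 h 35.1% were. Under upper-quartile scaling 1 was higher and 6 lower at 1 h, and 0 were higher and 6 lower at 2 h. NLP1, whose product converts N-carbamoylputrescine to putrescine, rose by 0.50 ± 0.06 at 1 h (adjusted p = 3.26e-08) and 0.30 ± 0.06 at 2 h, the latter being 0.03 and not called under upper-quartile scaling (adjusted p = 0.698). AIH, the agmatine iminohydrolase gene that competes with AACT1 for agmatine, was at -0.16 ± 0.09 at 1 h and fell by 0.28 ± 0.08 at 2 h (adjusted p = 0.00423). ACL5, a thermospermine synthase gene, fell by 1.34 ± 0.14 at 2 h, and BUD2, an S-adenosylmethionine decarboxylase gene, by 2.21 ± 0.34 at 1 h. The other S-adenosylmethionine decarboxylase genes SAMDC1, SAMDC2 and SAMDC3 were listed at 0 to 10 counts per library and were not tested. Whether their reads were counted at other annotated loci could not be checked, so these counts are not read as low expression.

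Of 14 genes for oxidation of polyamines and diamines, 10 passed the filter, and 1 was higher and 6 lower at each time, where 32.0% of all genes were called lower at 1 h and 35.1% at 2 h. Under upper-quartile scaling 1 was higher at each time, with 9 lower at 1 h and 7 at 2 h. The gene that rose was PAO4, a peroxisomal polyamine oxidase, with 1.15 ± 0.10 at 1 h (adjusted p = 1.68e-11) and 0.94 ± 0.10 at 2 h. CuAOa2, a copper amine oxidase gene, fell by 1.69 ± 0.27 at 2 h and PAO5 by 1.49 ± 0.15. Among 5 polyamine uptake transporter genes, PUT5 rose by 1.91 ± 0.08 at 1 h and PUT1 fell by 1.52 ± 0.14, with 1 higher and 4 lower in all at 1 h and 2 higher and 3 lower at 2 h, where PUT2 was at 0.04 and not called under upper-quartile scaling.

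Relatives of AACT1 and DTX18 in their own families were mixed. Of 8 other BAHD acyltransferases, 6 passed the filter, with 2 higher and 2 lower at 1 h and 2 higher and 3 lower at 2 h, beside 28.8% of all genes called higher and 32.0% lower at 1 h and 36.7% and 35.1% at 2 h. PMAT1, a malonyltransferase gene for phenolic glucosides, rose by 2.92 ± 0.16 at 2 h (adjusted p = 9.75e-17), while SCT, a spermidine acyltransferase gene, fell by 3.32 ± 0.72 (adjusted p = 1.30e-04). SCT was near the floor of counting, with means of 0.417 CPM in untreated WT and 0.0389 CPM at 2 h. Of 11 other MATE genes of the branch, 9 passed, with 2 higher and 1 lower at 1 h and 6 higher and 2 lower at 2 h. Under upper-quartile scaling these counts were 2 higher and 4 lower at 1 h and 4 higher and 3 lower at 2 h, so the balance at 1 h turned with the scaling. DTX15, counted as higher at 2 h under TMM scaling only, averaged 0.132 CPM in untreated WT and 0.406 CPM at 2 h. DTX1, an efflux carrier gene, rose by 1.93 ± 0.12 at 2 h, DTX3 by 1.60 ± 0.15 and ALF5, the tandem neighbour of DTX18, by 1.06 ± 0.10.

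**Figure D4:**
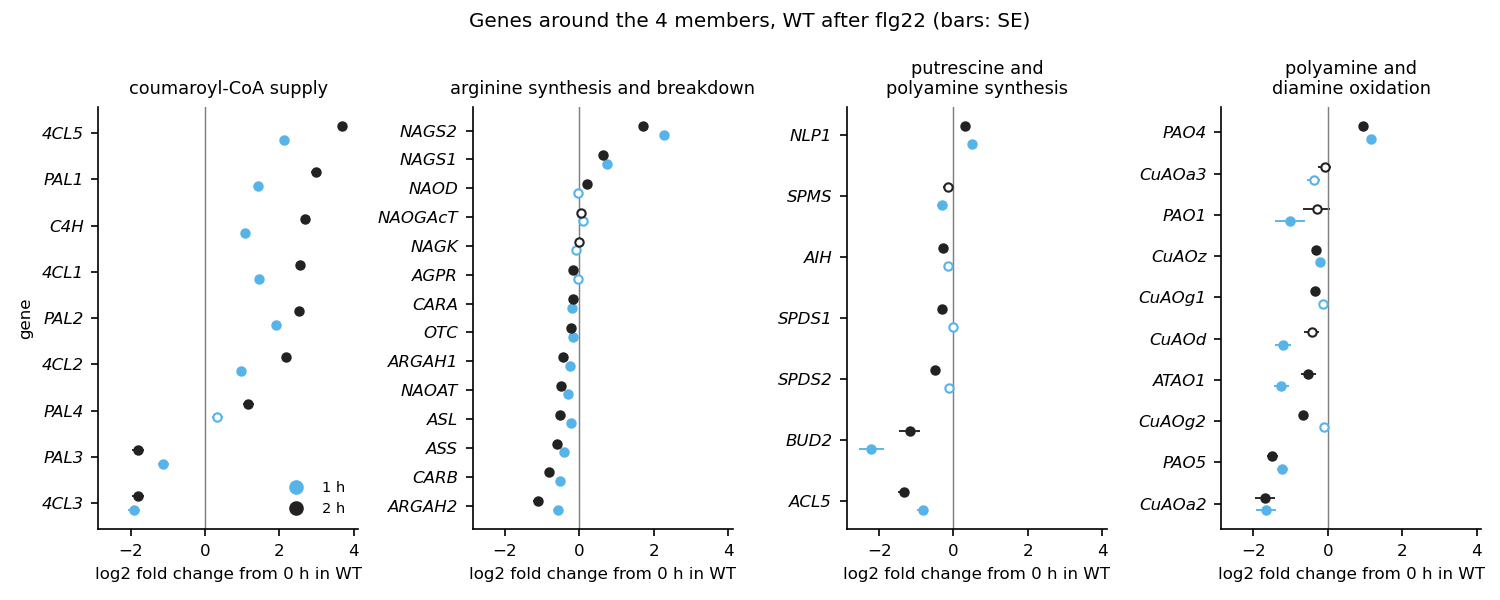
Log2 fold change from 0 h in WT at 1 h and 2 h with flg22 for genes of 4 lists around the route (bars are SE, filled points passed an adjusted p of 0.05, open points did not). In the list for coumaroyl-CoA most points lie to the right of 0, up to 3.69 for 4CL5, whereas most genes of the other 3 lists lie at or left of 0, with NAGS2 at 2.29 and PAO4 at 1.15 among those to the right.

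Few of these genes differed between genotypes. In wrky40 against WT, C4H (0.29 ± 0.08, adjusted p = 0.0448) and PMAT1 (0.96 ± 0.16, adjusted p = 2.95e-04) were higher at 1 h, where 2.23% of all genes were called, and no list gene was called at 2 h, where 4.02% were. In the untreated double mutant no list gene was called. At 1 h C4H (0.28 ± 0.08, adjusted p = 0.0334), DTX3 (0.63 ± 0.16, adjusted p = 0.0153) and PMAT1 (1.22 ± 0.16, adjusted p = 2.39e-06) were higher in the double mutant, where 5.79% of all genes were called. Both C4H calls were lost under upper-quartile scaling.

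At 2 h 8 list genes were called in the double mutant against WT, where 14.2% of all genes were. 4CL5 was lower by -0.87 ± 0.11 (adjusted p = 7.23e-07), in the same comparison in which ADC2 was lower, and ACL5 was lower by -0.46 ± 0.16 (adjusted p = 0.0475). Those higher were PMAT2 (0.61 ± 0.21), ARGAH2 (0.51 ± 0.14), PUT1 (0.49 ± 0.15), NAGS2 (0.32 ± 0.10), CuAOg1 (0.29 ± 0.10) and NLP1 (0.18 ± 0.06), with adjusted p from 0.0115 to 0.0456. The calls of PMAT2, NAGS2, CuAOg1 and NLP1 were lost under upper-quartile scaling and that of ACL5 under RLE scaling.

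Across the means of the 12 groups, AACT1 followed DTX18 and ADC2 more closely than ADC1, with Pearson's r of 0.96, 0.93 and 0.82 on log2 CPM, while ADC1 and ADC2 had 0.96. These r describe patterns over 12 groups that share the flg22 treatment, and 1387 of 17325 genes compared had r above 0.95 with AACT1, 1570 with ADC2, 1774 with DTX18 and 475 with ADC1. The genes most like AACT1 were STZ, a zinc finger repressor gene (r = 0.990), AT5G54940 (0.990), AT1G25400 (0.989), BAP1, a gene for a membrane-associated inhibitor of cell death (0.988) and MMP (0.987). STZ went from 7.79 CPM in untreated WT to 147 CPM at 2 h, and BAP1 from 0.827 to 32.2 CPM.

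The genes most like DTX18 were AT4G22305 (0.996), AT5G54170 (0.994), the peroxidase gene PRXCA (0.994), the tyrosine aminotransferase gene TAT3 (0.994) and AT4G19370 (0.993). Those most like ADC2 were AT1G78210 (0.995), PPI2, AT1G29670, AL7 and 5PTASE11 (0.994 each), and those most like ADC1 were AT1G19980 (0.986), AT5G40880 (0.981), AT4G17410 (0.980), UNE1 (0.980) and the polyubiquitin gene UBQ14 (0.979). PRXCA rose from 20.4 to 209 CPM and UBQ14 from 282 to 819.5 CPM between untreated WT and 2 h. Neighbouring ranks differ in the third decimal, and the order changed when the 36 libraries were used in place of group means: STZ was then at rank 13 for AACT1 and BAP1 at rank 3.

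The replicate spread differed among the members. The biological coefficient of variation was 22.3% for AACT1, 16.1% for DTX18, 9.42% for ADC1 and 6.93% for ADC2, beside a common value of 10.7%. For AACT1 8.06% of genes had a larger value. The called difference of ADC2 at 2 h (-0.30) is close in size to the uncalled difference of AACT1 at 2 h in the double mutant (-0.33 ± 0.22), which was called in the fit of only those groups (adjusted p = 0.0170).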

How the data were processed

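Per the labels' protocols, polyA RNA of whole seedlings was sequenced from stranded TruSeq libraries. Per the submitters' processing notes, FastQC 0.11.2, TopHat2 2.0.10, HTSeq and the TAIR10 build were used; the HTSeq version, its strand setting and read filters are not given in the sources used here, so reads in the 69 bp where DTX18 overlaps AT3G23540 cannot be assigned with certainty. The deposited values are raw counts per gene, with 32678 genes, 6155 of them at 0 in every library, and no normalization. Each of the 36 libraries had a column of its own, and groups came from the genotype, treatment and time labels.

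Counts were analysed in edgeR 4.0.16 (R 4.3.3): filterByExpr (21356 genes), TMM scaling, estimateDisp, glmQLFit and glmQLFTest with a mean for each of the 12 groups, 45 comparisons, two-sided p-values adjusted by Benjamini-Hochberg within each. The SE equals |log2 fold change|/sqrt(F). On simulated data for wrky18 wrky40 minus WT at 2 h (21284 genes), calls were made for 94% of 2-fold rises, 90% of 2-fold falls, 60% of 1.5-fold rises and 74% of 1.5-fold falls, with 8 false calls among 167. The simulated libraries were independent, with the spread fitted to these data and no structure by replicate number. Only 50 genes were changed per kind, whereas 3031 genes were called in the real comparison, so the rates hold for that simpler setting. Alternatives were RLE and upper-quartile scaling, no filter, a replicate block, only the groups compared, leaving out each library, and DESeq2 1.42.0. The labels call the replicates biological but do not say what a shared number marks, so the samples were not paired.

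The 4 genes, the lists and the tests were chosen with earlier results of these data known. Named genes are the members, WRKY18 and WRKY40, up to 3 called list genes per direction with the largest change in WT after flg22 and in wrky40 or the double mutant against WT, every called list gene where 5 or fewer were called, and the 5 genes most like each member over the group means (mean of at least 1 log2 CPM, prior count 2). AIH was named after its values were seen. Promoters, coordinates and symbols are from RefSeq (TAIR10.1), where DTX18 is listed by locus only. Of the list genes, 11 failed the filter, among them PAO2 and PAO3 with 0 counts in every library. Whether reads of such genes were counted at other loci was not tested, so failing the filter is not read as absence of expression.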

Additional observations from a re-analysis of the deposited data

Results flagged for a closer look

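The rise of ADC1 from 0 h differed between the double mutant and WT by the test of the difference itself, by 0.58 ± 0.15 at 1 h (adjusted p = 0.0492) and by 0.62 ± 0.15 at 2 h (adjusted p = 0.0152) in edgeR's quasi-likelihood fit. Untreated ADC1 was at 158 to 175 CPM in the double mutant and at 188 to 277 CPM in WT, and the genotypes were within 288 to 309 CPM at 1 h. The 2 differences share the same untreated libraries.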

How the results depend on the processing

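Of 72 results, 70 kept their direction and call (or, with no test, stayed within the replicate spread) under each of RLE scaling, no filter, the replicate block and DESeq2, 64 under upper-quartile scaling and 59 in fits of only the groups compared; leaving out single libraries ended a call 25 times. Both ADC1 calls nearest the threshold were lost under some alternatives: the double mutant against WT in the change to 1 h (RLE 0.56, upper-quartile 0.55, no filter 0.56, groups alone 0.57) and against wrky18 before treatment (RLE -0.38, groups alone -0.40). ADC1 in WT at 1 h was no longer called under upper-quartile scaling (0.12) and ranged from 0.18 to 0.45 when single libraries were left out. ADC2 in the double mutant against WT at 1 h, near 0, changed sign under upper-quartile scaling (-0.02), with no filter (-0.01) and when libraries were left out (-0.03 to 0.04). In fits of only the groups compared, 5 uncalled differences from WT became calls: for AACT1, wrky40 at 1 h (0.40) and wrky18 wrky40 at 2 h (-0.33), and for DTX18, wrky40 at 1 h (0.45) and wrky18 wrky40 at 1 h (0.28) and at 2 h (0.33). So did AACT1 in the double mutant against wrky18 at 2 h (-0.54) and in the step from 1 h to 2 h in WT (0.37), wrky18 (0.42) and wrky40 (-0.24), while the untreated double mutant was no longer called against WT for ADC1 (-0.53) and DTX18 (0.96). AACT1 in the double mutant against wrky18 at 1 h ranged from -0.03 (without double mutant 1 h replicate 2) to 0.32. For the comparisons after flg22, the share of all genes called in fits of only the groups compared is not given here. The cause of these changes was not tested.

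AACT1 in the double mutant against wrky18 before treatment ranged from 0.24 to 0.94 over the alternatives and was called in none. Genes called in untreated wrky40 against WT numbered 71, against 3 in a fit of those groups alone, 119 with the replicate block and 183 in DESeq2, and in the untreated double mutant 547 against 78, 753 and 763. Libraries with the same replicate number were compared by their deviations from group means: over 198 pairs r ran from -0.03 to 0.44 with a median of 0.13, and 127 exceeded 0.1, while pairs with different numbers had a median of -0.07. As a hint from the data and not the design, 35 of 36 libraries correlated best with their own number. With the replicate block, ADC2 became a call in the double mutant against wrky18 at 0 h (-0.24, adjusted p = 0.0332) and against wrky40 at 2 h (-0.24, adjusted p = 0.0243), and no other of the 72 results changed its call. Depth limited untreated AACT1 most, with 27 to 47 counts per WT library.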
